A study of Mus musculus with 9 samples.

Results

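Inflammasome sensors and pyroptosis genes were followed in mouse peritoneal macrophages treated with imiquimod (IMQ), an agonist of TLR7. The members were 9 genes chosen by name, *Nlrp3*, *Nlrp1b*, *Nlrc4*, *Aim2*, *Pycard*, *Casp1*, *Casp4*, *Casp8* and *Gsdmd*, out of 54059 genes with a value in each of 9 RNA-seq libraries. The study asked how loss or inhibition of the phosphatase SHP2, encoded by *Ptpn11*, alters the response of these cells to IMQ. Macrophages came from C57BL/6 mice, with an age of 8 weeks in the labels, and were the adherent fraction of cells washed from the peritoneal cavity after an injection of starch broth. The 3 groups had 3 libraries each. The WT libraries came from wild-type cells given IMQ at 10 µg/ml for 4 h. The SHP2lyz2-/- libraries came from cells of mice in which Cre driven by the *Lyz2* locus deletes floxed *Shp2* in myeloid cells, also after 4 h of IMQ, with the dose for these libraries not given in the sources used here. The SHP099 libraries came from wild-type cells given the allosteric SHP2 inhibitor SHP099 at 10 µM for 2 h before IMQ at 10 µg/ml for 4 h. All groups received IMQ, so no library shows these genes before stimulation. The labels number the libraries of a group but do not say that they came from separate animals, so p values measure only the spread between these samples, which may be technical.

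Inflammasomes are cytosolic complexes that form when a sensor protein meets a danger or microbial signal. Most sensors recruit the adaptor ASC, encoded by *Pycard*, which gathers and activates caspase-1, and caspase-1 cleaves pro-IL-1β, pro-IL-18 and gasdermin D. The N-terminal part of gasdermin D forms pores in the plasma membrane through which macrophages release the cytokines and die by pyroptosis. Transcript levels measure the supply of these components and not the assembly or cleavage of the proteins.

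Values are FPKM, that is fragments scaled to transcript length and library size, so levels of different genes can be compared per length. Depth, recovered from the steps between FPKM values, ran from 39843090 to 50981483 reads, and the median library had 43837652. *Ptpn11*, the gene targeted in SHP2lyz2-/- cells, had FPKM of 45.8, 44.0 and 40.0 in WT, 18.6, 17.8 and 18.9 in SHP2lyz2-/- and 43.0, 42.1 and 39.6 in SHP099. Its libraries separated completely between SHP2lyz2-/- and WT, in the direction of the label, with a log2 fold change of −1.19 ± 0.10 (SE; limma adjusted p = 0.0168). The adjusted p of limma passed 0.05 when some libraries were left out, at 0.105 without WT 1, 0.125 without WT 2, 0.196 without SHP2lyz2-/- 1 and 0.151 without SHP2lyz2-/- 2, and it was also above 0.05 with a block for replicate number, at 0.157. The remaining *Ptpn11* signal in SHP2lyz2-/- cells cannot be assigned in bulk RNA, where fewer cells of a type and less RNA per cell cannot be told apart.

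The labelled cell type was checked against 8 macrophage markers, and 8 of 8 had a mean FPKM of at least 1. The most abundant was the lysozyme gene *Lyz2*, and the summed macrophage markers were 10420.2, 13421 and 11189 FPKM in WT, 7595, 7468 and 8412 in SHP2lyz2-/- and 11778, 13005 and 13736 in SHP099. The macrophage sum was lower in each SHP2lyz2-/- library than in any other library, and *Lyz2*, the locus that carries the Cre, was at 4863, 4743 and 5407 FPKM there against 7440.3 to 10227.8 in WT. Without *Lyz2*, the other 7 macrophage markers summed to 2980 to 3238 FPKM in WT, 2726 to 3005 in SHP2lyz2-/- and 2430.1 to 3021 in SHP099, and the groups overlapped. Fibroblast and mesothelial markers passed a mean of 1 FPKM for 4 of 6 genes, with *Col1a1* the most abundant, and summed to 56.5, 272 and 36.2 FPKM in WT, 122, 45.9 and 548 in SHP2lyz2-/- and 334, 126 and 95.0 in SHP099. They were highest in SHP2lyz2-/- 3, followed by SHP099 1 and WT 2, so they did not follow the groups. B cell markers passed for 3 of 6 genes, led by *Ighm*, and summed to 178 FPKM in SHP2lyz2-/- 3 against 11.5 to 47.5 in the other libraries. *Ighm* alone was at 175 FPKM in SHP2lyz2-/- 3. Of the 8 macrophage markers, 3 had an estimate above 0 and 5 below 0 in SHP099 against WT, from a log2 fold change of −0.52 for *Fcgr1* (95% interval −1.25 to 0.21) to 1.38 for the receptor gene *Csf1r* (0.85 to 1.90), which was at 181, 211 and 206 FPKM against 58.2, 67.8 and 111 in WT. Their estimates in SHP2lyz2-/- against WT were above 0 for 2 and below 0 for 6, from −0.97 for the receptor kinase gene *Mertk* (−1.62 to −0.32, limma adjusted p = 0.454) to 0.44 for *Csf1r* (−0.46 to 1.34), with *Fcgr1* at −0.82 (−1.86 to 0.22) and *Cd14* at −0.68 (−1.38 to 0.017). *Mertk* was at 6.10, 7.39 and 13.3 FPKM in WT and lower in each SHP2lyz2-/- library, at 3.28, 4.35 and 3.98. Between SHP2lyz2-/- and SHP099, 2 were above 0 and 6 below 0, from −1.02 for *Lyz2* to 0.29 for *Adgre1*. Neutrophil markers passed for 2 of 6 genes, led by *Csf3r*, and summed to 89.3 to 168 FPKM, while the defining genes *Ly6g*, *Retnlg* and *Cxcr2* were each below a mean of 0.5. T cell markers passed for 1 of 6 genes and summed to 1.78 to 8.31 FPKM, with *Lck* the most abundant. Mast cell markers passed for 1 of 5 genes, led by *Kit*, summed to 3.998 to 5.62 FPKM in WT, 0.995 to 3.17 in SHP2lyz2-/- and 0.495 to 0.970 in SHP099, with no overlap of the 3 groups, and included *Fcer1a* at 0 in all 9 libraries. The markers of NK cells (0 of 4 genes, led by *Gzma*), eosinophils (0 of 4, led by *Siglecf*) and dendritic cells (0 of 5, led by *Zbtb46*) did not reach a mean of 1 FPKM. NK cell markers summed to 0.114 to 1.67 FPKM in WT, 0 to 0.155 in SHP2lyz2-/- and 0.274 to 0.432 in SHP099. The eosinophil sums were 0.383 to 0.930 FPKM in WT, 0.280 to 0.727 in SHP2lyz2-/- and 0.0186 to 0.0368 in SHP099, lower in each SHP099 library than in any other. Dendritic cell sums did not overlap between the 3 groups, at 0.809 to 1.28 FPKM in WT, 1.33 to 1.83 in SHP2lyz2-/- and 0.619 to 0.784 in SHP099. The part of these cell types in the values below was not tested.

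A pair of libraries stood apart within their groups. SHP2lyz2-/- 1 and 2 correlated across genes at r = 0.992, and SHP2lyz2-/- 3 correlated with them at 0.967 and 0.954. WT 1 and 2 correlated at 0.984, and WT 3 at 0.976 and 0.974, whereas the SHP099 libraries lay between 0.988 and 0.991. These are correlations over genes, which are not independent replicates. WT 3 also had the highest level of the interferon-responsive transcription factor *Irf1*, at 1062 FPKM against 249 and 286 in the other WT libraries, and SHP2lyz2-/- 3 had the highest fibroblast sum and the highest *Ighm*. Values of the members without WT 3 or SHP2lyz2-/- 3 are therefore given beside those with all libraries.

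**Figure D1:**
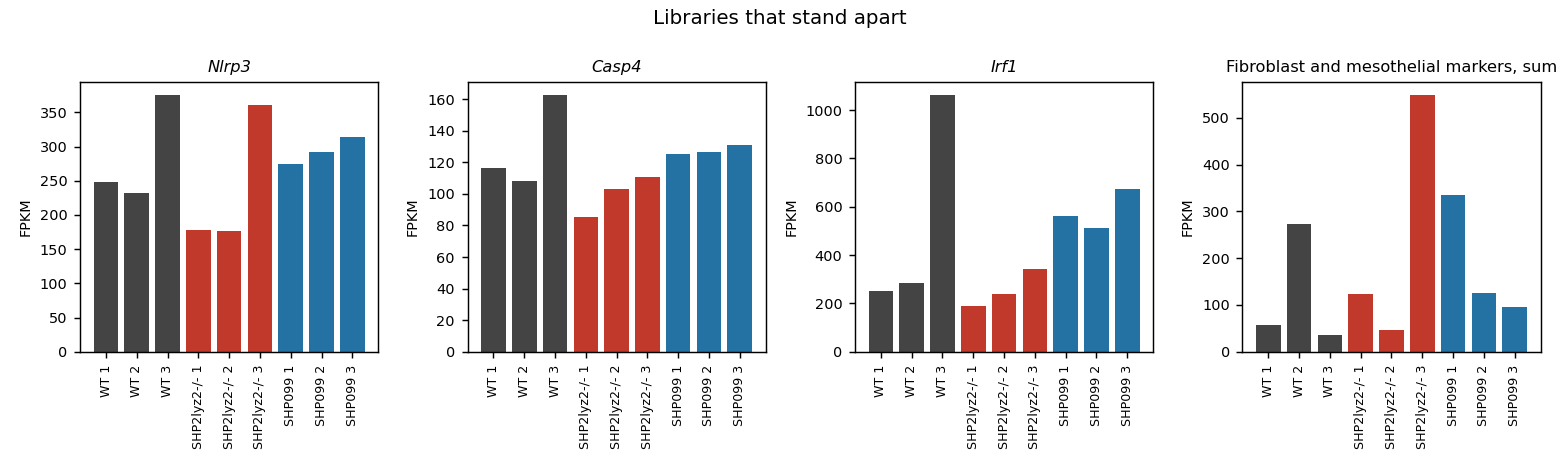
FPKM (vertical axes, linear from 0) of *Nlrp3*, *Casp4* and *Irf1* and the summed FPKM of 6 fibroblast and mesothelial markers, 1 bar per library, in WT (grey), SHP2lyz2-/- (red) and SHP099 (blue). *Nlrp3* was highest in WT 3 (375) and SHP2lyz2-/- 3 (361), *Irf1* in WT 3 (1062), and the marker sum in SHP2lyz2-/- 3 (548).

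*Nlrp3*, on chromosome 11 (chr11:59541568-59566956, + strand, GRCm38), encodes a sensor that responds to potassium efflux, crystals and membrane damage and that depends on prior induction of its own transcript. Promoter sequence was listed by RefSeq (GRCm38.p6) for 8 of the 9 members, in 11 windows, with none listed for *Gsdmd*. The 250 bases before each start were searched on both strands for the κB element by name and for GAAANNGAAA (interferon-stimulated response element), TTCNNNGAA (interferon gamma activated site) and TGANTCA (AP-1), which were found in 7.25%, 2.98%, 7.02% and 6.75% of 32851 such windows of all genes. Among the members only *Nlrp3* and *Casp4* held a match, in each case to the κB element, and of the 2 windows of *Nlrp3* the other one (chr11:59542436-59542685) held 0. The windows of these genes are printed because *Casp4* was the member with the profile nearest to that of *Nlrp3*, and that of *Casp8* because it carried the only call, each on the + strand with κB matches in capitals. The *Nlrp3* window printed (chr11:59541319-59541568) ended at the start of the annotated gene, that of *Casp4* (chr9:5308599-5308848) reached 21 bases into an annotated exon, and that of *Casp8* (chr1:58802252-58802501) lay within the annotated gene and outside its exons.
*Nlrp3*: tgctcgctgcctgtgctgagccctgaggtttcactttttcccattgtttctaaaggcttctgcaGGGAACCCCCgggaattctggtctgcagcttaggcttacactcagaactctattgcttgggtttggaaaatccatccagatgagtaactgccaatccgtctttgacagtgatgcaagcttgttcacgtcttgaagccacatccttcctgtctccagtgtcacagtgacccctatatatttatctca
*Casp4*: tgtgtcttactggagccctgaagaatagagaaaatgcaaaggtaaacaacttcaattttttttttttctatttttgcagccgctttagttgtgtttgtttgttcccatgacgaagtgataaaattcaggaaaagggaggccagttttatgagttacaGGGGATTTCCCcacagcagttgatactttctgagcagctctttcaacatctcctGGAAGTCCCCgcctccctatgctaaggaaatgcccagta
*Casp8*: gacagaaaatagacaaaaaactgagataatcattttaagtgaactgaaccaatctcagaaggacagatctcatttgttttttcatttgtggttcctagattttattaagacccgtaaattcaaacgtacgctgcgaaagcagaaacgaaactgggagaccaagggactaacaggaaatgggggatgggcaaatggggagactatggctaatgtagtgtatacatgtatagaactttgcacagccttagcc
In *Casp4* the capitals cover 2 overlapping matches from −93 to −83 and another from −39 to −30, counted from the start site, and in *Nlrp3* a match from −186 to −177. A match describes letters only, and whether a factor binds there was not measured.

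Among the sensors, *Nlrp3* had FPKM of 248, 232 and 375 in WT, 179, 176 and 361 in SHP2lyz2-/- and 275, 291 and 314 in SHP099. The groups overlapped, because WT 3 and SHP2lyz2-/- 3 lay far above the other libraries of their groups, while SHP099 was even, at 293 ± 19.7 (SD, n = 3) against 285 ± 78.7 in WT and 239 ± 106 in SHP2lyz2-/-. *Aim2* (chr1:173350879-173466040, + strand) encodes a sensor of cytosolic double-stranded DNA. Its FPKM was 37.4, 30.5 and 31.9 in WT, 36.0, 40.5 and 22.9 in SHP2lyz2-/- and 32.4, 26.3 and 28.0 in SHP099. Here SHP2lyz2-/- 3 was the lowest library and SHP2lyz2-/- 2 the highest, and the groups overlapped. *Nlrc4* (chr17:74425438-74459142, − strand), whose product joins NAIP proteins that bind flagellin or secretion system proteins, had FPKM of 5.58, 6.79 and 6.08 in WT, 6.67, 6.76 and 5.05 in SHP2lyz2-/- and 4.49, 5.19 and 5.65 in SHP099. The SHP099 libraries were among the low ones, and SHP099 3 exceeded WT 1. *Nlrp1b* (chr11:71153102-71230733, − strand), the sensor of anthrax lethal factor in some mouse strains, was listed at 0 in each WT library, at 0.0236, 0.0309 and 0.0167 FPKM in SHP2lyz2-/- and at 0.0464, 0.0192 and 0.0348 in SHP099. These values stand for 4, 5 and 3 reads in SHP2lyz2-/- and 8, 3 and 6 reads in SHP099, near the floor of 3 reads that a count of 0 allows, so *Nlrp1b* did not pass the filter on low values and no fold is given. It entered only the alternative with no filter, where 0 of the 9 members were called in any of the 3 comparisons. Its neighbour and paralog *Nlrp1a*, 8.40 kb away, was also low, at 0.0604 FPKM or less. How reads shared by the paralogs were counted is not given in the sources used here, so both levels may be understated.

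*Pycard* (chr7:127989708-127993867, − strand), the adaptor gene, had FPKM of 6.70, 7.88 and 4.21 in WT, 9.03, 9.56 and 4.30 in SHP2lyz2-/- and 5.49, 5.35 and 4.49 in SHP099. It ran opposite to *Nlrp3* within WT and within SHP2lyz2-/-, with library 3 lowest in both, and the groups overlapped. A gene model on the opposite strand, *Gm45205*, overlaps *Pycard* with a mean of 0.0234 FPKM, and the strand of counting is not given in the sources used here.

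The inflammatory caspase genes *Casp1* (chr9:5298517-5307265, + strand) and *Casp4* (chr9:5308828-5336783, + strand) are neighbours, 1.56 kb apart. *Casp1*, which encodes the caspase that inflammasomes activate, had FPKM of 107, 80.9 and 104 in WT, 91.4, 102 and 84.4 in SHP2lyz2-/- and 101, 109 and 114 in SHP099. WT 2 was the lowest library and SHP099 3 the highest, and the groups overlapped. *Casp4*, the mouse gene for caspase-11, the receptor of cytosolic lipopolysaccharide, had FPKM of 117, 108 and 163 in WT, 85.4, 103 and 111 in SHP2lyz2-/- and 125, 127 and 131 in SHP099. WT 3 was highest, as for *Nlrp3*, and each SHP2lyz2-/- library lay below each SHP099 library. *Casp8* (chr1:58795374-58847503, + strand) encodes a caspase that restrains necroptosis and can itself cleave gasdermin D and pro-IL-1β. Its FPKM was 31.6, 30.9 and 32.6 in WT, 31.5, 30.6 and 21.1 in SHP2lyz2-/- and 24.1, 24.6 and 23.3 in SHP099. Each SHP099 library was below each WT library, and SHP2lyz2-/- 3 was lower still, whereas SHP2lyz2-/- 1 and 2 stood at the WT level.

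*Gsdmd* (chr15:75862327-75867408, + strand), the pore-forming effector gene, had FPKM of 148, 140.2 and 163 in WT, 135, 141 and 126 in SHP2lyz2-/- and 158, 149.9 and 177 in SHP099. Among the members that passed the filter on low values it was the least variable. Its SD over the 9 libraries was 0.15 on the log2(FPKM + 1) scale, and each SHP2lyz2-/- library lay below each SHP099 library. *Pycard* and *Nlrp3* varied most, with an SD of 0.40 and 0.39 on that scale.

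**Figure D2:**
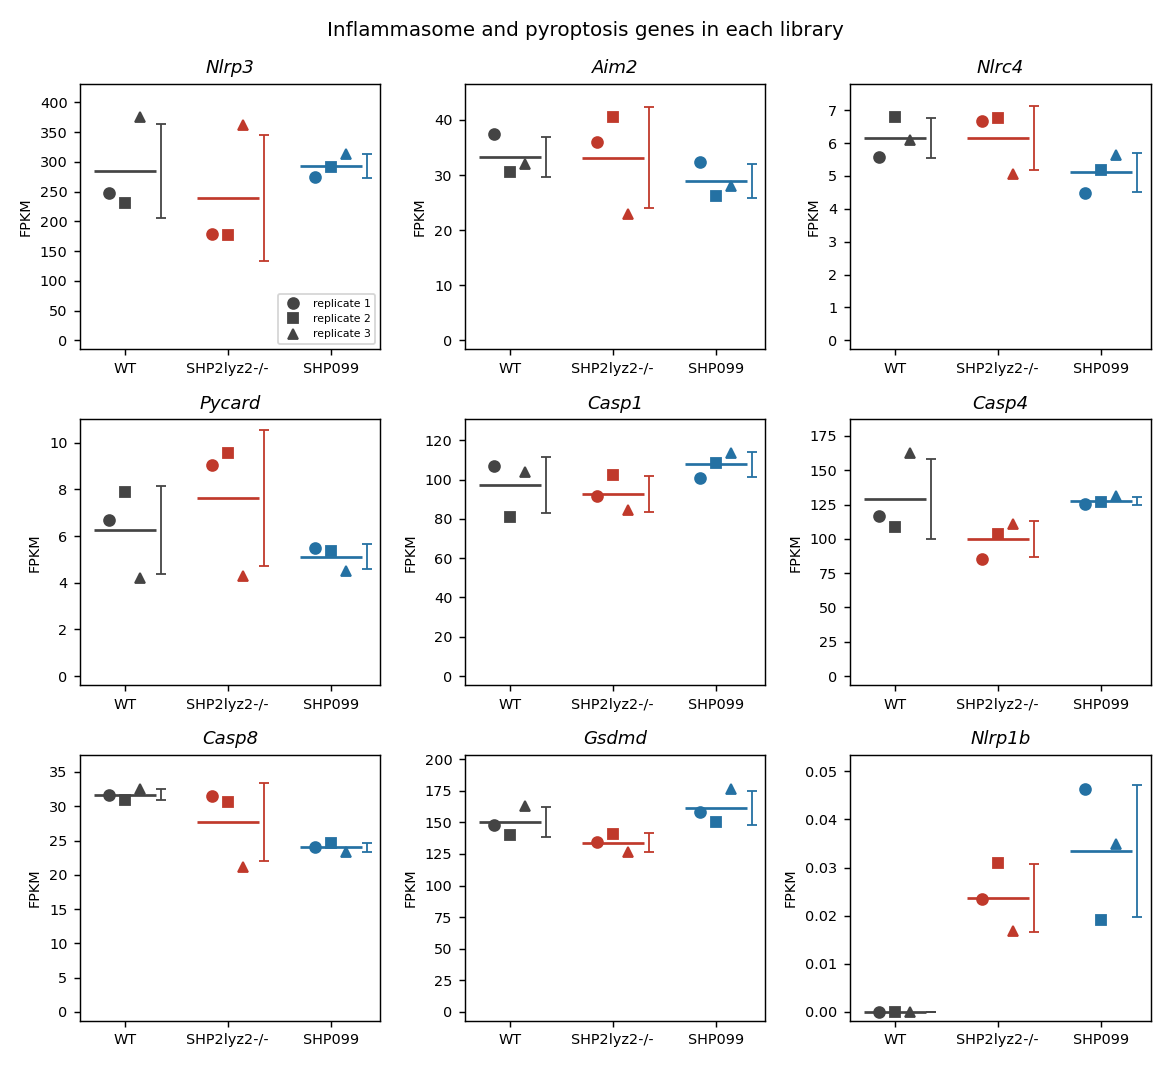
FPKM (vertical axes, linear) of each member in WT (grey), SHP2lyz2-/- (red) and SHP099 (blue), 1 point per library with the marker shape giving the replicate number, horizontal lines for group means and bars for the SD (n = 3). The SHP099 libraries of *Casp8* (23.3 to 24.6) lay below the WT libraries (30.9 to 32.6), and library 3 stood apart for *Nlrp3* and *Pycard* in WT and in SHP2lyz2-/-.

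Ordered by mean FPKM in WT, the members ran from *Nlrp3* (285) through *Gsdmd* (150.2), *Casp4* (129), *Casp1* (97.2), *Aim2* (33.3), *Casp8* (31.7), *Pycard* (6.26) and *Nlrc4* (6.15) to *Nlrp1b* (0). In WT the ranges of *Gsdmd* and *Casp4*, of *Aim2* and *Casp8*, and of *Pycard* and *Nlrc4* overlapped, and those of the other neighbours did not. The order of the means was the same in SHP2lyz2-/- and SHP099, where *Pycard* and *Nlrc4* overlapped again and, in SHP2lyz2-/-, *Casp4* with *Casp1* and *Aim2* with *Casp8*. Per length, the adaptor transcript thus stood at 6.26 ± 1.87 FPKM (SD, n = 3) in WT, beside 285 ± 78.7 for *Nlrp3* and 97.2 ± 14.2 for *Casp1*. By mean FPKM, *Nlrp3* ranked 409 and *Pycard* 7780 among the 11450 genes with a mean of at least 1 over the 9 libraries. How reads in the overlap of *Pycard* with *Gm45205* were counted is not known, so the level of *Pycard* may be understated. FPKM matched the mean length of the annotated transcripts of a gene, which may differ from the length expressed here. The ranks are therefore approximate and do not show that the adaptor is scarce.

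These 11450 genes were tested with limma on log2(FPKM + 1), with 6 libraries per comparison, p values adjusted over all genes by the Benjamini-Hochberg method and a call at an adjusted p of at most 0.05. With 3 libraries on each side, exact permutation gives no p below 0.1, so calls rest on the variance that limma shares across genes. Of the 9 members, 8 passed the filter on low values. The median log2 fold change of all genes tested was 0.15 for SHP2lyz2-/- and 0.13 for SHP099 against WT, and −0.012 and −0.0051 after median-of-ratios scaling, so the changes of the members are read against these medians. Both comparisons use the same WT libraries and are not independent of each other.

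In SHP2lyz2-/- against WT, the comparison that asks what loss of SHP2 does, 0 of the 8 members tested were called by limma, against 0.0873% of all genes (10 genes, each lower). Libraries that do not overlap between the groups were found for 0 of the 8 members tested and 19.1% of all genes. At an unadjusted p below 0.05 there were 0 members and 10.5% of all genes (1204 genes). These counts were 2 members and 917 genes with median-of-ratios scaling, and 2 members and 2340 genes with the replicate number as a block. Limma voom on recovered reads also called 0 members. The estimates of 7 members were below 0 and that of *Pycard* above it, with a median of −0.11 over the members tested. For *Nlrp3* the log2 fold change was −0.31 ± 0.32 (SE), with a 95% interval of −1.07 to 0.46 that leaves room for a change in either direction. *Casp4* had the lowest estimate, −0.36 (95% interval −0.78 to 0.07), and *Gsdmd* stood at −0.16 (−0.39 to 0.06). The estimate for *Casp8* was −0.21 (−0.59 to 0.18) and that for *Pycard* 0.22 (−0.55 to 0.99). *Casp1* at −0.061, *Aim2* at −0.041 and *Nlrc4* at −0.0048 were the closest to 0, and of these *Aim2* had the widest interval, with an upper end of 0.47. Without SHP2lyz2-/- 3, 0 members were called and 0.0699% of all genes, the estimate for *Nlrp3* was −0.65 (limma adjusted p = 0.230), for *Pycard* 0.54 (0.267) and for *Casp4* −0.43 (0.267), and *Aim2* at 0.20, *Casp1* at 0.0043 and *Nlrc4* at 0.11 had the opposite sign, with *Gsdmd* at −0.12 and *Casp8* at −0.029. Leaving out WT 3 instead brought the estimates nearer to 0 for *Nlrp3* (−0.091), *Casp4* (−0.18), *Gsdmd* (−0.10), *Casp8* (−0.19), *Casp1* (−0.0073) and *Pycard* (−0.0026, with the opposite sign), while *Aim2* was at −0.067 and *Nlrc4* at −0.010. With both left out, 0 members and 8 genes were called. The count of 10 genes was 2, 1 and 5 without WT 1, 2 and 3 and 1 without SHP2lyz2-/- 1 or 2.

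SHP099 against WT asks what acute inhibition of SHP2 does in wild-type cells. Here 1 of the 8 members tested was called, against 6.96% of all genes (797 genes), and 1 member and 26.7% of all genes (3061 genes) had an unadjusted p below 0.05. The counts at this unadjusted p were 3 members and 2504 genes with median-of-ratios scaling, and 4 members and 2740 genes with quantile normalization. *Casp8* fell by 0.39 on the log2 scale (SE 0.08, 95% interval −0.57 to −0.20, limma adjusted p = 0.0351), from 31.7 ± 0.841 to 24.0 ± 0.666 FPKM (SD, n = 3), a ratio of the means of 0.758, with 3 of 3 SHP099 libraries below all WT libraries. Libraries that do not overlap between these groups were found for 1 of the 8 members and for 34.6% of all genes. The direction of *Casp8* held in every alternative run, at −0.53 to −0.34 over the settings, but the call did not. The limma adjusted p was 0.0533 with no filter on low values, 0.0521 without the trend in the prior variance and 0.124 with all 9 libraries in the fit, 0.0636 with the replicate number as a block, and it was 0.0813 without WT 1, 0.0751 without WT 2, and 0.149, 0.153 and 0.104 without SHP099 1, 2 and 3, within a range of 0.0224 to 0.153 over all alternatives. The count of 797 genes was 284, 399 and 1273 without WT 1, 2 and 3 and 90, 47 and 116 without SHP099 1, 2 and 3. None of the other members was called. Their estimates ran from −0.23 for *Nlrc4* (95% interval −0.54 to 0.08), −0.22 for *Pycard* (−0.71 to 0.28) and −0.20 for *Aim2* (−0.47 to 0.08) to 0.10 for *Gsdmd* (−0.12 to 0.33) and 0.16 for *Casp1* (−0.13 to 0.44). *Nlrp3* at 0.074 (−0.35 to 0.50) and *Casp4* at 0.0057 (−0.35 to 0.36) lay near 0, and with median-of-ratios scaling *Nlrp3* (−0.077), *Casp4* (−0.14) and *Gsdmd* (−0.047) had the opposite sign. Without WT 3 the estimates were 0.29 for *Nlrp3*, 0.18 for *Casp4*, 0.16 for *Gsdmd*, 0.21 for *Casp1*, −0.44 for *Pycard*, −0.23 for *Nlrc4*, −0.23 for *Aim2* and −0.37 for *Casp8*, the only call among them. The median of the members tested was −0.10. Of the 797 genes, 521 were higher and 276 lower, a share of 65.4% higher, which was 33.7% of 511 genes with median-of-ratios scaling and 49.1% of 700 with quantile normalization.

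Comparing SHP2lyz2-/- with SHP099 tests the difference between the deletion and the inhibitor directly. With all libraries, 0 of the 8 members tested were called by limma, against 0.0699% of all genes (8 genes, 3 higher and 5 lower in SHP2lyz2-/-; 5 and 2 with median-of-ratios scaling), and limma voom on recovered reads also called 0. At an unadjusted p below 0.05 there were 2 members and 12.6% of all genes (1437 genes). These were *Casp4*, at −0.36 (95% interval −0.61 to −0.11, limma adjusted p = 0.316), and *Gsdmd*, at −0.27 (−0.48 to −0.06, limma adjusted p = 0.342). They were also the 2 members whose libraries did not overlap, which held for 17.7% of all genes. The widest intervals were those of *Pycard*, at 0.44 (−0.21 to 1.08), and *Nlrp3*, at −0.38 (−1.03 to 0.27). The difference for *Casp8* was 0.18 (−0.19 to 0.55), so the call against WT with SHP099 and its absence with SHP2lyz2-/- is not shown to be a difference between them.

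Leaving out single libraries moved this comparison, with 0 and 2 genes called without SHP2lyz2-/- 1 and 2 and 0 without SHP099 1, 2 or 3. Leaving out SHP2lyz2-/- 3 moved it the other way. Without it 5 of the 8 members were called, against 19.9% of all genes (2277 genes), and for each of the 5 SHP2lyz2-/- 3 was the library of its group nearest to SHP099 or past it. *Nlrp3* was then lower in SHP2lyz2-/- by a log2 difference of −0.72 (limma adjusted p = 0.00304) and *Casp4* by −0.44 (0.0212). *Pycard* was higher by 0.76 (0.00879), *Aim2* by 0.40 (0.0466) and *Casp8* by 0.36 (0.0162). *Gsdmd* at −0.22 (0.106), *Nlrc4* at 0.34 (0.0902) and *Casp1* at −0.15 (0.230) were not called. No reason in the labels sets this library aside, its fibroblast sum and *Ighm* were the highest of all libraries, and their part in the result was not tested. These calls describe SHP2lyz2-/- 1 and 2 and are not the result of the design.

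**Figure D3:**
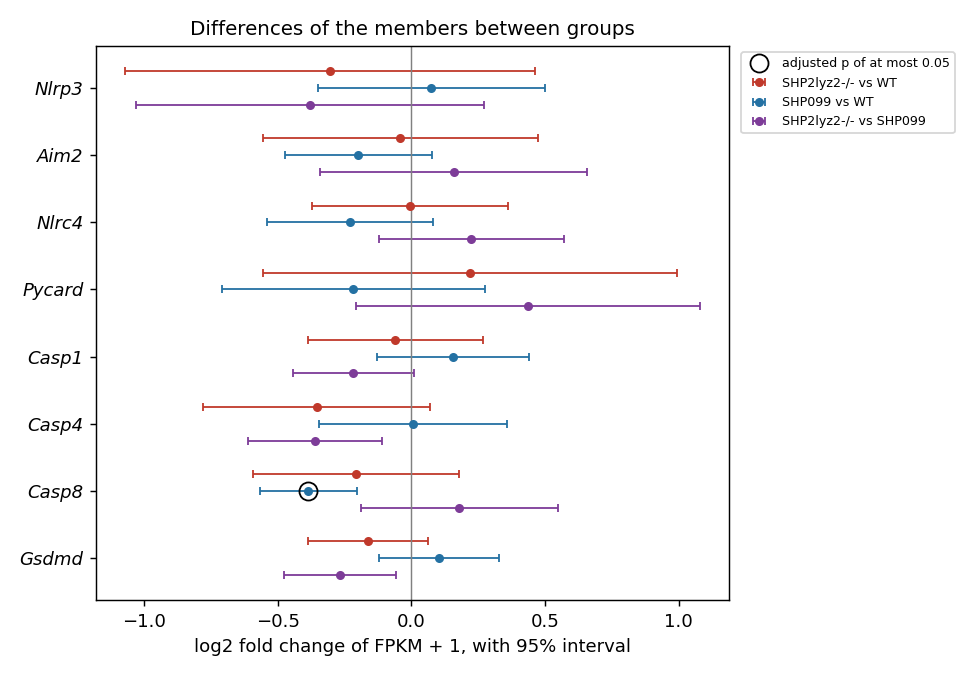
Log2 fold change of FPKM + 1 (horizontal axis) with 95% intervals for the 8 members tested, in SHP2lyz2-/- against WT (red), SHP099 against WT (blue) and SHP2lyz2-/- against SHP099 (purple), 3 libraries per group. The circled point is the only call, *Casp8* at −0.39 in SHP099 against WT, and the intervals of *Nlrp3* and *Pycard* are the widest.

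The other genes of the pathway were read from 6 lists of 66 genes, of which 55 passed the filter. In SHP2lyz2-/- against WT, 0 were higher, 3 lower and 52 not called, a share of 5.45% called beside 0.0873% of all genes, with a median of −0.016 beside 0.15 over all genes. In SHP099 against WT, 0 were higher, 5 lower and 50 not called, a share of 9.09% called beside 6.96% of all genes, with a median of 0.025 beside 0.13. In SHP2lyz2-/- against SHP099, 1 was higher, 0 lower and 54 not called, a share of 1.82% called beside 0.0699% of all genes, with a median of −0.053 beside 0.017. Without WT 3, 9 of the 55 genes were called in SHP099 against WT (16.4%, beside 11.1% of all genes), and without SHP2lyz2-/- 3, 14 were called in SHP2lyz2-/- against SHP099 (25.5%, beside 19.9%). The counts at an unadjusted p below 0.05 given for each list stand beside 10.5%, 26.7% and 12.6% of all genes in these comparisons, in the same order. With all libraries, the calls except that of *Nod1* in SHP099 were among the cytokine substrates and their inhibitors, where 5 of 6 genes were tested and the median was −1.53 in SHP2lyz2-/- and −2.91 in SHP099 against WT.

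*Il1b*, the main cytokine substrate of caspase-1, had FPKM of 4291, 4108 and 3143 in WT, 763, 706 and 594 in SHP2lyz2-/- and 192, 99.96 and 409 in SHP099. The 3 groups were fully separated, and *Il1b* fell by 2.48 on the log2 scale in SHP2lyz2-/- (limma adjusted p = 0.00781) and by 4.25 in SHP099 (limma adjusted p = 0.00846). *Il1a*, which encodes the other IL-1 ligand, had FPKM of 1215, 1373 and 1048 in WT, 354, 344 and 326 in SHP2lyz2-/- and 218, 68.2 and 185 in SHP099. It fell by 1.82 in SHP2lyz2-/- (limma adjusted p = 0.00781) and by 3.09 in SHP099 (limma adjusted p = 0.0135). *Il1rn*, the gene of the IL-1 receptor antagonist, which blocks the receptor of both, fell along with them, with a log2 fold change of −1.53 in SHP2lyz2-/- (limma adjusted p = 0.0168) and of −2.91 in SHP099 (limma adjusted p = 0.000742). Its FPKM was 348, 440.4 and 445 in WT, 144, 147 and 131 in SHP2lyz2-/- and 54.8, 47.2 and 58.8 in SHP099, and with all libraries it was the only listed gene called between SHP2lyz2-/- and SHP099, at 1.38 (limma adjusted p = 0.0109). *Il18* had FPKM of 22.2, 13.3 and 15.1 in WT, 13.2, 18.2 and 4.77 in SHP2lyz2-/- and 3.82, 5.45 and 5.01 in SHP099. It fell by 1.61 in SHP099 (limma adjusted p = 0.0133) and overlapped WT in SHP2lyz2-/-, where its estimate was −0.59 (95% interval −1.65 to 0.48) and SHP2lyz2-/- 3 was low. Without SHP2lyz2-/- 3 this estimate was −0.081, and *Il18* was called between SHP2lyz2-/- and SHP099 at 1.53 (limma adjusted p = 0.00453). Single libraries mattered for these calls. In SHP2lyz2-/- against WT the limma adjusted p of *Il1b* was 0.0547 and 0.0724 without WT 1 and 2 and 0.0952 and 0.0856 without SHP2lyz2-/- 1 and 2, and that of *Il1a* was 0.0547, 0.0562, 0.104 and 0.0856 without the same libraries. For *Il1rn* it was 0.112 and 0.0883 without WT 2 and 3 and 0.196 and 0.125 without SHP2lyz2-/- 1 and 2. Between SHP2lyz2-/- and SHP099, *Il1rn* had a limma adjusted p of 0.115 and 0.0641 without SHP2lyz2-/- 1 and 2 and of 0.0534, 0.0896 and 0.0996 without SHP099 1, 2 and 3. For *Il18* in SHP099 it was 0.0541, 0.0611 and 0.0537 without SHP099 1, 2 and 3. With no filter on low values, the calls of *Il1b* (limma adjusted p = 0.0633), *Il1a* (0.0767) and *Il18* (0.0689) in SHP099 were lost too, as were those of *Il1b* (0.0697) and *Il1rn* (0.0721) in SHP2lyz2-/- against WT and of *Il1rn* (0.0807) between SHP2lyz2-/- and SHP099. With all 9 libraries in the fit, the limma adjusted p in SHP2lyz2-/- against WT was 0.102 for *Il1b* and 0.143 for *Il1a*, and with the replicate number as a block it was 0.111 for *Il1a* and 0.170 for *Il1rn*, and 0.146 for *Il1rn* between SHP2lyz2-/- and SHP099. Exons of *Il1a* overlap *Gm14023* (mean 8.42 FPKM) and those of *Il1b* overlap *Il1bos* (0.317) on the opposite strand, and reads of the partners cannot be told apart without strand. *Il18bp*, the inhibitor of IL-18, was at 0.12 in SHP099 against WT (95% interval −1.02 to 1.26, and 0.38 without WT 3) and −0.81 in SHP2lyz2-/- against SHP099 (−1.84 to 0.22), and its exons overlap *Numa1*.

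Among 17 other sensors, 12 were tested and 1 was called, in SHP099 against WT, a share of 8.33% beside 6.96% of all genes, and limma voom also called 1 there and 0 in the other comparisons. At an unadjusted p below 0.05 there were 6 in SHP2lyz2-/- (10.5% of all genes) and 4 in SHP099 (26.7% of all genes) against WT and 1 between SHP2lyz2-/- and SHP099 (12.6% of all genes). *Nod1*, a sensor of bacterial peptidoglycan fragments, fell by 0.73 in SHP099 against WT (limma adjusted p = 0.0379), from 22.3, 26.3 and 30.0 to 18.1, 13.2 and 14.8 FPKM, with 3 of 3 SHP099 libraries below all WT libraries. Its limma adjusted p was 0.123 with no filter on low values, 0.0501 without the trend and 0.0660 with the replicate number as a block, and it was 0.0541 and 0.0797 without WT 1 and 2 and 0.0760, 0.165 and 0.107 without SHP099 1, 2 and 3. The list's median was −0.13 in SHP2lyz2-/- and −0.0065 in SHP099 against WT. *Naip2*, which recognises secretion system proteins for *Nlrc4*, was the most abundant of the *Naip* genes at 17.7 to 23.8 FPKM, and *Naip6* was at 2.73 to 4.11, with reads of these near-identical paralogs uncertain. *Naip6* (0.25) and *Nlrc3* (0.63) had the highest estimates in SHP2lyz2-/- against WT and *Naip2* (0.26) and *Nlrc3* (0.51) in SHP099, none of them called. *Zbp1*, a nucleic acid sensor induced by interferon, had the lowest estimate in SHP2lyz2-/- (−1.53, 95% interval −2.60 to −0.46) before *Ifi204* (−1.19, −2.31 to −0.07), and *Zbp1* was highest in WT 3, at 71.5 FPKM against 18.1 and 33.3 in WT 1 and 2. Without WT 3 these estimates were −1.03 for *Zbp1* and −0.70 for *Ifi204*. *Ifi204* at −0.83 (limma adjusted p = 0.0241) and *Nod2* at −0.54 (0.00906) were called between SHP2lyz2-/- and SHP099 when SHP2lyz2-/- 3 was left out. In SHP099 the lowest were *Mefv* (−0.97, −1.81 to −0.14), which encodes pyrin, and *Zbp1* (−0.78, −1.99 to 0.42), which were at −0.72 and −0.28 without WT 3.

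Among partners and regulators of NLRP3, 15 of 16 genes were tested and 0 called by limma or limma voom in any of the 3 comparisons. At an unadjusted p below 0.05 there were 4 in SHP2lyz2-/- and 2 in SHP099 against WT and 3 between SHP2lyz2-/- and SHP099. The highest estimates in SHP2lyz2-/- against WT were those of *Panx1* (0.89, 95% interval 0.20 to 1.58), a channel of ATP release, and *P2rx7* (0.63, 0.30 to 0.97), the ATP-gated channel that triggers NLRP3. In SHP099 they were *Panx1* (0.97, 0.32 to 1.63) and *Nek7* (0.40, 0.13 to 0.67), the kinase that binds NLRP3. The lowest in both were the interferon-inducible GTPase genes *Gm12250* (−2.09, −3.80 to −0.37 in SHP2lyz2-/- and −1.31, −3.05 to 0.42 in SHP099) and *Gbp5* (−1.16, −2.24 to −0.08 and −0.38, −1.51 to 0.76). *Gbp5* was at 284 FPKM in WT 3 against 97.0 and 81.5 in WT 1 and 2, and *Gm12250* at 77.1 against 9.52 and 16.3. Without WT 3, *Gm12250* was at −1.24 in SHP2lyz2-/- and −0.47 in SHP099, and *Gbp5* at −0.60 and 0.18. *Panx1* without WT 3 was at 0.55 in SHP2lyz2-/- and was called in SHP099 at 0.63 (limma adjusted p = 0.0239, within a range of 0.0239 to 0.249 over all alternatives). Without SHP2lyz2-/- 3, *P2rx7* at 0.37 (limma adjusted p = 0.0424), *Gbp2* at −1.10 (0.0455) and *Mavs* at 0.60 (0.00976) were called between SHP2lyz2-/- and SHP099.

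Among other caspases and death kinases, 10 of 11 genes were tested and 0 called by limma or limma voom, with 2, 3 and 3 at an unadjusted p below 0.05 in SHP2lyz2-/- against WT, SHP099 against WT and SHP2lyz2-/- against SHP099. *Casp6*, an executioner caspase gene, was at 0.66 in SHP099 against WT (95% interval 0.27 to 1.05, limma adjusted p = 0.0575, and 0.0487 to 0.227 over all alternatives, with a call only with the replicate number as a block), and *Ripk3*, the kinase of necroptosis, was at −0.51 (−0.96 to −0.05). *Mlkl* was at −0.34 (−0.65 to −0.04) in SHP2lyz2-/- against WT, or −0.23 without WT 3, and *Fadd*, the adaptor of caspase-8, at 0.39 (−0.04 to 0.83) there and 0.32 (0.03 to 0.62) in SHP099. Without SHP2lyz2-/- 3, *Casp6* at −0.76 (limma adjusted p = 0.0180), *Cflar*, an inhibitor of caspase-8, at −0.48 (0.00896) and *Ripk1* at −0.31 (0.0451) were called between SHP2lyz2-/- and SHP099. Exons of *Ripk1* (mean 27.8 FPKM) overlap *Serpinb6a* (160.1) on the opposite strand, and reads of the 2 genes cannot be told apart without strand. Among other gasdermins and genes of membrane rupture or repair, 6 of 9 were tested, 0 were called by limma or limma voom, 0, 3 and 0 had an unadjusted p below 0.05 in the same order of comparisons, and the estimates lay between −0.062 and 0.26 in the comparisons with WT. *Ninj1*, needed for the final rupture of the membrane, was at 0.26 (0.02 to 0.50) in SHP099 against WT. *Vps4b* was called between SHP2lyz2-/- and SHP099 with SHP2lyz2-/- 3 left out, at −0.21 (limma adjusted p = 0.0412). Among 7 transcription factors that drive these genes, 7 were tested and 0 called by limma or limma voom, with 1, 2 and 4 at an unadjusted p below 0.05. *Nfkb1* was at −0.32 (−0.51 to −0.13, limma adjusted p = 0.0567) in SHP099 against WT, with a call at a minimum mean of 5 FPKM (limma adjusted p = 0.0495) and with all 9 libraries in the fit (0.0380), within a range of 0.0380 to 0.223 over all alternatives. The lowest of these factors in SHP2lyz2-/- against WT were *Irf8* at −0.87 (−2.13 to 0.39) and *Irf1* at −0.76 (−2.08 to 0.56). Without WT 3 these estimates were −0.21 for *Irf8* and −0.098 for *Irf1*. In SHP099 against WT the lowest was *Irf8* at −0.57 (−1.81 to 0.67), which was at 0.094 without WT 3. *Irf1* was at −1.21 (−1.73 to −0.69, limma adjusted p = 0.185) in SHP2lyz2-/- against SHP099. Without WT 3, *Irf1* in SHP099 against WT was called at 1.11 (limma adjusted p = 0.0118), against 0.45 with it, and so were *Rela* at 0.48 (0.0272) and *Irf2* at 0.42 (0.0321). With SHP2lyz2-/- 3 left out, calls between SHP2lyz2-/- and SHP099 were *Irf1* at −1.43 (limma adjusted p = 0.00296), *Irf2* at −0.56 (0.00591) and *Rela* at −0.37 (0.0268). Exons of *Irf1* (mean 457 FPKM) overlap *Gm17334* (4.43) on the opposite strand.

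**Figure D4:**
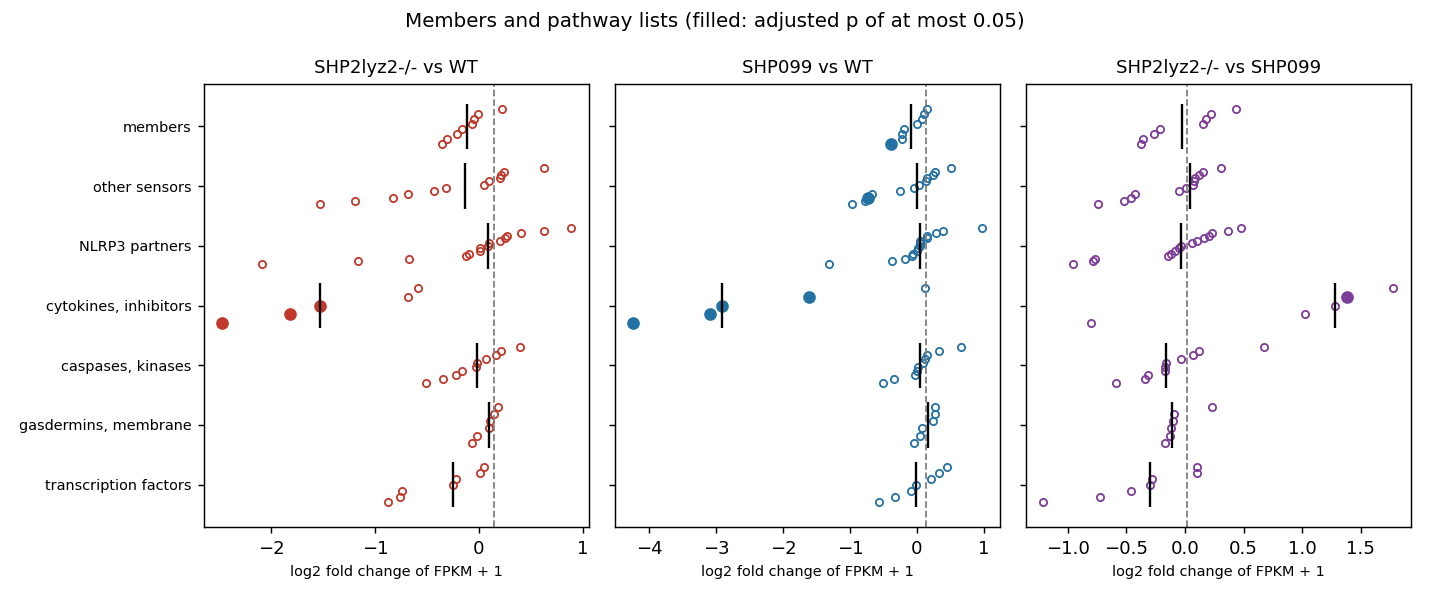
Log2 fold change of FPKM + 1 (horizontal axes, scales differ) of the members and of the genes in 6 pathway lists, 1 point per gene tested, filled where the adjusted p was at most 0.05, with black lines at list medians and a dashed line at the median of all genes. The filled points against WT lie mostly among the cytokines and inhibitors, with medians of −1.53 and −2.91, and members lie around −0.11 and −0.10.

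The genes whose profile over the 9 libraries was nearest to that of *Nlrp3*, by the root mean square difference of centred log2(FPKM + 1), were *Ankrd33b* (0.10), *Orai2* (0.12), *Zhx2* (0.14), *Rab20* (0.14) and *Mdfic* (0.14). *Ankrd33b* had FPKM of 25.3, 23.4 and 32.0 in WT, 18.9, 17.1 and 33.3 in SHP2lyz2-/- and 29.1, 28.9 and 31.4 in SHP099, with WT 3 and SHP2lyz2-/- 3 again the highest of their groups. Among the members the nearest was *Casp4* (0.23, place 131 of the genes tested), followed by *Gsdmd* (0.35) and *Casp1* (0.38), and the farthest was *Pycard* (0.74, place 10720). This is a description of likeness over 9 libraries, with no test.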

How the data were processed

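RNA was sequenced from 9 libraries of IMQ-treated peritoneal macrophages, 3 per group, grouped by their labels. The authors aligned the reads with HISAT2 2.0.4, counted them per gene with HTSeq 0.9.1 and deposited FPKM, and the submitters' processing notes also name CASAVA 1.8. The tool that made FPKM, the genome build and the strand of counting are not given in the sources used here. Of the 54059 genes, 353 were not in GENCODE M21 (GRCm38), which gave names, positions and lengths. FPKM times mean transcript length fell within 0.05 of a whole number of reads in 96.3% to 96.7% of values of up to 50 reads (10% by chance), which gave the depth. The floor of 3 reads covers counting error only.

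The 11450 genes whose FPKM averaged at least 1 were tested on the log2(FPKM + 1) scale in R 4.3.3, using lmFit and trended eBayes of limma 3.58.1. The pseudocount of 1 understates changes of low genes. The procedure was run on simulated data with independent noise, in which 200 genes were changed by more than any estimate given for a member. That run does not address smaller changes or libraries that stand apart. Tables were made in Python 3.11.15 using pandas 2.3.3 and numpy 2.4.6, and plots using matplotlib 3.10.9.

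The genes named are the 9 members, pathway genes that were called or were among the 2 largest changes in either direction within their list, and the 5 genes nearest to *Nlrp3*. The wording of this rule allows the 2 largest overall or 2 in each direction, and 2 in each direction was used, a reading settled after values had been seen. Genes without a call are named in the text where they illustrate a list, and some listed genes are not reported. *Lyz2*, *Csf1r* and other markers, genes named for a call with WT 3 or SHP2lyz2-/- 3 left out, *Naip2* levels, *Nlrp1a* and overlapping genes were added after their values were seen, and the promoter motifs were chosen after the promoter sequences had been seen. The members and lists were chosen with earlier results of these data known. Alternatives were pseudocounts of 0.1 and 5, no filter, a minimum mean FPKM of 5, median-of-ratios, equal-sum and quantile scaling, eBayes without the trend, all 9 libraries in the fit, the replicate number as a block, voom on recovered reads, a call at an adjusted p of at most 0.005 with a log2 fold change of at least 1, and each library left out in turn. Leaving out WT 3 and SHP2lyz2-/- 3 together was chosen after seeing the data.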

Additional observations from a re-analysis of the deposited data

Results flagged for a closer look

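Between SHP2lyz2-/- and SHP099, 2 of the genes described differed in a direct limma test of the 6 libraries. *Ptpn11* was lower in SHP2lyz2-/-, at a log2 fold change of −1.13 (limma adjusted p = 0.0109), with 3 of 3 libraries below all SHP099 libraries. *Il1rn*, the gene of the IL-1 receptor antagonist, was higher in SHP2lyz2-/- by a log2 fold change of 1.38 (limma adjusted p = 0.0109), with 3 of 3 libraries above all SHP099 libraries. Both calls were lost with single libraries left out, at a limma adjusted p of 0.115 and 0.0641 for both genes without SHP2lyz2-/- 1 and 2, of 0.0534 for both without SHP099 1, of 0.0942 for *Ptpn11* and 0.0896 for *Il1rn* without SHP099 2, and of 0.0996 for both without SHP099 3. They were also lost with the replicate number as a block, at a limma adjusted p of 0.146 for both, and the call of *Il1rn* was lost with no filter on low values, at a limma adjusted p of 0.0807.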

How the results depend on the processing

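The count of members called was 0 in SHP2lyz2-/- against WT under every alternative. In SHP099 against WT it was 1, and 0 with no filter, without the trend, with all 9 libraries, with the replicate block and under the stricter rule, and 0 to 1 with a library left out. In SHP2lyz2-/- against SHP099 it was 0, and 0 to 5 with a library left out. Genes called in SHP2lyz2-/- against WT were 10, but 6 without the trend, 1 under the stricter rule and 1 to 8 with a library left out. In SHP099 against WT they were 797, but 74 with no filter, 511 with median-of-ratios scaling, 19 under the stricter rule and 47 to 1273 with a library left out. In SHP2lyz2-/- against SHP099 they were 8, but 3 with no filter or all 9 libraries, 17 at a minimum of 5 FPKM, 14 with voom, 0 under the stricter rule and 0 to 2277 with a library left out. The labels do not say whether same-numbered libraries were paired. Their deviations from group means correlated at −0.43 to 0.49, −0.09 to 0.45 and −0.05 to 0.18 in these comparisons. Differently numbered libraries gave −0.63 to 0.54, −0.40 to 0.49 and −0.27 to 0.20. Deviations from a mean of 3 libraries constrain each other, so these values cannot decide whether libraries were paired. With the replicate block 2, 591 and 0 genes were called, and *Ptpn11* in SHP2lyz2-/- against WT stood at −1.19 without a call. Over libraries left out *Ptpn11* ran from −1.24 to −1.15.

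Signs changed for estimates that were not called. With a library left out, SHP2lyz2-/- against WT gave −0.20 to 0.20 for *Aim2*, −0.19 to 0.011 for *Casp1*, −0.16 to 0.074 for *Chmp4b*, −0.068 to 0.11 for *Nlrc4*, −0.0026 to 0.54 for *Pycard*, −0.039 to 0.19 for *Rela*, −0.095 to 0.098 for *Spi1* and −0.13 to 0.042 for *Vps4b*. SHP099 against WT gave −0.11 to 0.18 for *Casp4*, −0.72 to 0.18 for *Gbp5*, −0.26 to 0.59 for *Il18bp*, −0.96 to 0.094 for *Irf8* and −0.058 to 0.29 for *Nlrp3*, and SHP2lyz2-/- against SHP099 gave −0.0032 to 0.40 for *Aim2* and −0.21 to 0.43 for *Mefv*. With WT 3 and SHP2lyz2-/- 3 left out together, chosen after seeing the data, *Aim2* was at 0.17, *Casp1* at 0.058, *Chmp4b* at 0.073 and *Nlrc4* at 0.11. Median-of-ratios scaling, which removes the shift of the median, gave −0.13 for *Rela*, −0.17 for *Spi1* and −0.030 for *Vps4a* in SHP2lyz2-/-, and −0.14 for *Casp4*, −0.047 for *Gsdmd*, −0.012 for *Il18bp* and −0.077 for *Nlrp3* in SHP099, where quantile normalization gave −0.015 for *Casp4* and −0.00366 for *Il18bp*. Leave-out fits have fewer samples; other causes were not tested. Among the members, only *Nlrp1b* was limited by reads.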
